A study of Mus musculus with 4 samples.

Results

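The genes described here are 60 genes of mitosis and chromosome segregation, a list of cyclins, kinases, checkpoint proteins, kinetochore proteins, kinesins, cytokinesis factors and condensin subunits. Of these, 59 had at least 1 probe set (several short probes read as a single signal) that names that gene alone, of 18193 genes named in this way in the series. Ccnb1, which encodes cyclin B1, had no such probe set and enters only the promoter counts below. Sgol1 was found under its current symbol Sgo1. Where several probe sets named a gene, the brightest on average over all arrays was used, which fixes the gene's values without reference to genotype.

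RNA came from naive T cells of mouse spleen, wild type (WT) or knockout (KO), which had been driven towards regulatory T cells (Treg cells) in culture for 3 days. The samples were 2 WT and 2 KO, called WT1, WT2, KO1 and KO2 after the numbers in their titles, with 1 single-colour Affymetrix array each. The labels give neither the deleted gene nor the strain, the age or the number of mice behind a sample, so the deletion itself could not be checked. Nothing says that the numbered samples were cultured apart, and p-values here reflect only how these samples vary, which may be technical.

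A dividing cell condenses its chromosomes, attaches them through kinetochores to the spindle and separates them once the spindle checkpoint is satisfied. Cdk1 with its cyclins drives entry into mitosis, Aurora and Polo kinases direct the spindle, and the anaphase-promoting complex (APC/C) marks cyclin B and securin for destruction. Transcripts of these genes rise together in G2 and fall in resting cells, under the DREAM repressor complex and the activators B-Myb and Foxm1. In activated T cells they are widely read as a sign of how many cells are dividing.

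The promoters of these genes share sequence features. Promoter sequences from RefSeq, build GRCm38.p6, from 250 bases before to 50 bases after each annotated start, were at hand for 50 of the 60 genes. The cell cycle homology region, searched as TTTGAA on both strands, was present in the promoters of 34 of the 50 (68%), against 20.2% of all 27025 genes with a promoter sequence and 14.4% of those tested on the arrays. The CCAAT box, the site bound by NF-Y, was searched on both strands as CCAAT and was present in 35 (70%), against 41.1% of all genes. Matches of both motifs overlapped in 1 promoter. DNA replication genes from a list of 36, of which 29 had a promoter sequence, held CCAAT at a like rate (69%) but TTTGAA in 13.8%. A match describes letters only and does not show that a factor binds there. The stretches below are the 120 bases just before the annotated start, outside the transcript, with matches to either motif on either strand in capitals. Cdk1 (chr10:69352913-69353032, minus strand), Top2a (chr11:99024190-99024309, minus strand), Ube2c (chr2:164769809-164769928, plus strand) and Cdc20 (chr4:118437344-118437463, minus strand) are shown as examples of the genes that hold both motifs in this stretch. Others, such as Ect2 and Kif11, hold both as well. Ncaph (chr2:127133955-127134074, minus strand) and Pttg1 (chr11:43425982-43426101, minus strand) are shown as examples of genes in which neither motif was found. Both were among the genes called lower in KO cells, and whether a motif goes with such a call was not tested.
Cdk1: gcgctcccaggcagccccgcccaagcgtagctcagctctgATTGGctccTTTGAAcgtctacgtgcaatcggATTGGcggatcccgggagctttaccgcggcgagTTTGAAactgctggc
Top2a: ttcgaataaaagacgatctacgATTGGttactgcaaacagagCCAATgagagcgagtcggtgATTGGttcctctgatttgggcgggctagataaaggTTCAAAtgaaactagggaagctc
Ube2c: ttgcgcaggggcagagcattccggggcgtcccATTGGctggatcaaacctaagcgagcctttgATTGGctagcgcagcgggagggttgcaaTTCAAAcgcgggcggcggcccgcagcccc
Cdc20: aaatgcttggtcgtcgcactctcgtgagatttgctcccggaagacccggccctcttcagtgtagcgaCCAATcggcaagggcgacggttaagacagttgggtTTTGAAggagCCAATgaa
Ncaph: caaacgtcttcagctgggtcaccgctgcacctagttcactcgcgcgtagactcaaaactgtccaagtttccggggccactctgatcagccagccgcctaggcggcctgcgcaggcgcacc
Pttg1: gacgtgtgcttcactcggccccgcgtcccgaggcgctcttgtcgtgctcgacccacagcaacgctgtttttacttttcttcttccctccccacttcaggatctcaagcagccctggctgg

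KO cells had lower signals of 7 mitosis genes and higher signals of none, at an adjusted p under 0.05. The 7 were Racgap1, Ncapd2, Spc24, Ncaph, Cdc25b, Smc4 and Pttg1, with decreases between 1.31-fold and 1.86-fold. Signals are linear MAS5 values, and differences are log2 fold changes, KO minus WT, of log2(signal + 16), tested with limma and adjusted by the Benjamini-Hochberg method over 27022 probe sets. All 59 genes were bright enough to be tested. The share called lower, 11.9%, was near the 9.87% of all 12547 tested genes, with 1 probe set per gene, that were called lower. None of the 59 was called higher, nor was any at an unadjusted p under 0.05, while 10.5% of all tested genes were called higher, and 20.3% in either direction. In turn, 16 of the 59 had lower values at an unadjusted p under 0.05 (27.1%), beside 18% of all tested genes with lower and 16.5% with higher values at that threshold. The median log2 fold change of the 59 was -0.29, beside -0.026 for all tested genes, and 50 of 59 lay below 0 (84.7%, beside 52.5% of all tested genes). In bulk RNA, fewer dividing cells and less of these transcripts per dividing cell cannot be told apart. The calls depended on how the spread was estimated: without the dependence of the variance on intensity 0 of the 59 were called, while 1.63% of all genes were called lower.

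**Figure D1:**
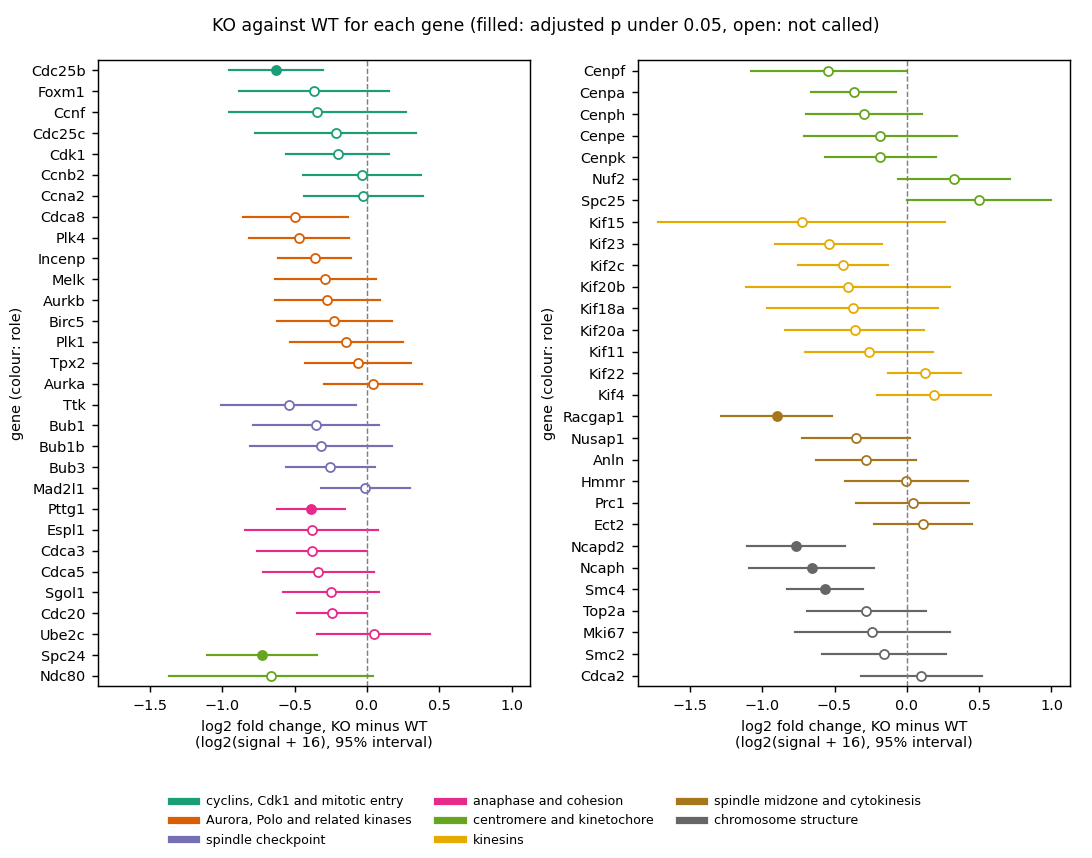
Log2 fold change, KO minus WT, of each of the 59 genes with its 95% interval from limma, in 2 panels, coloured by role. Filled points are the 7 genes called lower; open points were not called, and the median of all 59 is -0.29.

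Of the called genes, 3 encode parts of condensin, the ring complex that compacts chromosomes. Smc4, an ATPase of its core, had signals of 5535 and 5995 on WT1 and WT2, and of 4252 and 3554 on KO1 and KO2. Smc4 thus fell from 5765 ± 325 to 3903 ± 493 (mean ± SD, n = 2 per group), by limma at -0.57 ± 0.12 (log2, ± SE) with an adjusted p = 0.0127. Each of the remaining 2 Smc4 probe sets was called lower as well, at -0.99 and -0.79. Ncapd2, a subunit of condensin I, had 3854 and 3256 on the WT arrays and 2355 and 1833 on the KO arrays, and fell 1.70-fold (-0.77 ± 0.15, limma, adjusted p = 0.00951). Ncaph, the kleisin that closes the condensin I ring, had 3912 and 2503 against 2042 and 1920.5. Ncaph fell 1.58-fold (-0.66 ± 0.19, limma, adjusted p = 0.0472). The WT arrays of Ncaph differed by 0.64 on the log2 scale, about as much as the genotypes, and its dimmer probe set was not called (-0.46). Smc2, the partner of Smc4, was at 1690.1 and 1455 against 1713 and 1150.4, so that the groups overlapped (-0.16, 95% interval -0.59 to 0.27, not called). Of the other 4 condensin subunits, Ncapd3 of condensin II fell 1.63-fold (2705 ± 156 to 1657 ± 205, limma, adjusted p = 0.00705). Ncapg (0.15), Ncapg2 (0.30) and Ncaph2 (0.0048) lay above 0 and were not called. The call of Smc4 was lost without WT2 (adjusted p = 0.0754), and that of Ncaph without WT1 (0.234), KO1 (0.068) or KO2 (0.0984). The Ncaph call was also lost with a pseudocount of 1 (0.0559), no filter (0.0958), median centring (0.0619) or without probe sets marked as open to cross-hybridisation (0.0947), while leaving out single arrays did not end the call of Ncapd2.

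**Figure D2:**
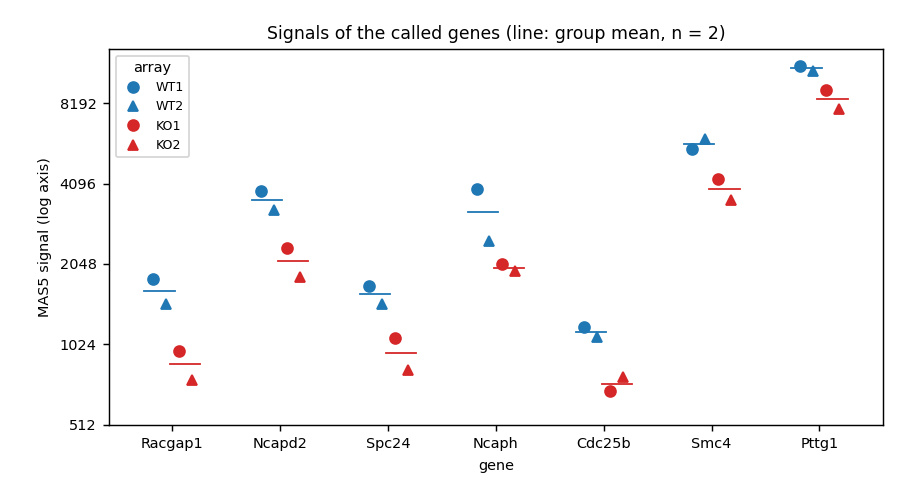
MAS5 signals, on a log axis, of the 7 called genes on each of the 4 arrays, WT in blue and KO in red, with array 1 as circles, array 2 as triangles and lines at the group means. For each gene both KO signals lie below both WT signals, as for Racgap1 with 971 and 756 against 1792 and 1449. The genes were chosen by calls on these same arrays, so this separation adds nothing to the calls.

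The other genes of chromosome structure varied more between the KO arrays than between genotypes. Mki67, which encodes the proliferation marker Ki-67 of the mitotic chromosome surface, had 3038 and 2574 on the WT arrays, 3159.8 on KO1 and 1771 on KO2. KO1 was thus above both WT arrays and KO2 below them (-0.24, interval -0.78 to 0.30, not called). Top2a, the topoisomerase that untangles sister chromatids, had 7806 and 7187 against 7688 and 4950.5 (-0.28, not called). Cdca2, a protein phosphatase 1 partner that acts on chromatin at mitotic exit, was at 0.10 and was not called.

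Racgap1, a subunit of centralspindlin, which sets the plane of cytokinesis, showed the largest decrease of the 7 called genes. It had 1792 and 1449 on the WT arrays and 971 and 756 on the KO arrays, and fell 1.86-fold (-0.90 ± 0.17, limma, adjusted p = 0.0082). Its other tested probe set, with 1173 and 972 against 1162 and 900.1, did not differ to that extent (-0.061 ± 0.17, not called). The decrease of Racgap1 was therefore seen with 1 of its 2 probe sets, and averaged over both it was not called (-0.48, adjusted p = 0.0651). The centralspindlin kinesin Kif23 had 1062 and 889 against 727 and 605 (-0.54 ± 0.16). It missed the threshold (limma, adjusted p = 0.0541). Both KO arrays lay below both WT arrays, as in 32.9% of all tested genes. Ect2, a cytokinesis factor that Racgap1 recruits, was at 0.11 (interval -0.22 to 0.45). Prc1, which bundles midzone microtubules, was at 0.041 and the hyaluronan receptor and spindle protein gene Hmmr at -0.003. For each of these 3 the highest signal was on KO1. Anln, an actin-binding cytokinesis protein (-0.28), and Nusap1, a microtubule stabiliser (-0.35), were not called.

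Among the 9 kinesins none was called. Log2 fold changes ran from -0.73 for Kif15, a spindle motor at the dim end (59.6 and 44.1 against 31.5 and 18.9), to 0.19 for Kif4, the chromosome-arm motor. Kif2c, a microtubule depolymerase at centromeres, had 1673 and 1436 against 1196 and 1082 (-0.44 ± 0.14, limma, adjusted p = 0.0583). Kif11, which pushes spindle poles apart, had 804 and 678 against 725 and 518 (-0.26, not called). Kif18a (-0.38), Kif20a (-0.36), Kif20b (-0.41) and Kif22 (0.12) were not called either. In Kif2c, Kif15, Kif18a and Kif23 both KO arrays lay below both WT arrays (44.4% of the 9, beside 32.9% of all tested genes). In Kif4 both lay above, as in 29.8% of all tested genes.

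The centromere and kinetochore genes did not share a direction. Spc24, a subunit of the Ndc80 complex that holds microtubules, had 1697 and 1454 on the WT arrays and 1087 and 818 on the KO arrays. It fell 1.65-fold (-0.73 ± 0.17, limma, adjusted p = 0.0197), a call that was lost without WT1 (adjusted p = 0.0871) or KO2 (0.0591). Its direct partner in the complex, Spc25, had 1000.5 and 828 against 1636 and 1016, at 0.50 ± 0.22 (interval -0.0021 to 0.99, adjusted p = 0.161), and was called higher only with KO2 left out (adjusted p = 0.014) or with the array number as a block (0.041). A dim second probe set of Spc25 pointed the other way (-0.81, not called). Ndc80 had 394 and 369 against 339.6 and 161 (-0.66, adjusted p = 0.183), and Nuf2 345 and 345 against 441 and 431 (0.32, adjusted p = 0.235). Within this complex of 4 proteins, Spc24 and Ndc80 transcripts thus lay below the WT arrays and Spc25 and Nuf2 above them on both KO arrays. Over all tested genes 32.9% lay below and 29.8% above in this way. Whether the 4 log2 fold changes of this complex differ from each other was not tested. Of the others, Cenpa, the centromeric histone H3 variant, was at -0.37 (3339 and 3362 against 2906 and 2311, adjusted p = 0.0883). Cenpf, a large kinetochore protein, was at -0.54, with 587 on KO1 and 347 on KO2, the kinetochore motor Cenpe at -0.18, and the inner kinetochore subunits Cenph and Cenpk at -0.30 and -0.18, none of them called.

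Of the genes that bring cells into mitosis, Cdc25b, a phosphatase that activates Cdk1, was called. It had 1185 and 1090.4 on the WT arrays and 685 and 777 on the KO arrays, and fell 1.55-fold (-0.63 ± 0.14, limma, adjusted p = 0.0186). In contrast to most of the list, KO2 was not the lowest array for Cdc25b. The call was lost without WT1 (adjusted p = 0.096) or KO1 (0.0644). The cyclins and Cdk1 differed less between genotypes than between the KO arrays. Ccna2, which encodes cyclin A2, had 3014 and 2573 against 3337 and 2247 (-0.024, interval -0.44 to 0.39). Ccnb2, for cyclin B2, had 3145 and 2593 against 3353 and 2317 (-0.035, interval -0.44 to 0.37). Cdk1 had 3061 and 2674 against 2897 and 2132 (-0.20, interval -0.56 to 0.15). The intervals leave room for decreases of up to 0.44, 0.44 and 0.56 on the log2 scale. Ccnf (-0.34), an F-box cyclin, the phosphatase gene Cdc25c (-0.22) and the activator gene Foxm1 (246 and 222 against 161 and 197, -0.36) were not called.

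None of the 9 Aurora, Polo and related genes was called, and log2 fold changes ran from -0.50 to 0.044. Of the chromosomal passenger complex, which corrects attachments, Cdca8 had 4531 and 3644 against 3312 and 2499 (-0.50 ± 0.16, limma, adjusted p = 0.067), and Incenp 5666 and 5245 against 4561 and 3945 (-0.36 ± 0.11, adjusted p = 0.0566). For both, the KO arrays lay below the WT arrays, as in 32.9% of all tested genes. The kinase of that complex, Aurkb (-0.27), and Birc5 (-0.23), which encodes survivin, overlapped between the genotypes. Plk4, which licenses centriole duplication, had 1524 and 1486 against 1235 and 948 (-0.47 ± 0.15, limma, adjusted p = 0.0685). Plk1, the main Polo kinase, was at -0.14, Aurka, the spindle pole kinase, at 0.044, its activator Tpx2 at -0.062 and the kinase gene Melk at -0.29. 

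The 5 spindle checkpoint genes lay between -0.54 and -0.012, and none was called. Ttk, the kinase that starts the checkpoint signal, had 436 and 439 against 347 and 252 (-0.54 ± 0.20, limma, adjusted p = 0.109). Bub1 had 1833 and 1676 against 1697 and 1106, and Bub1b 1295 and 1183 against 1271 and 773. For both, KO1 was within the WT range and KO2 far below it. Bub3 was at -0.25 and Mad2l1, which inhibits Cdc20, at -0.012 (interval -0.32 to 0.30).

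Of the anaphase and cohesion genes, Pttg1, which encodes securin, the inhibitor of separase, had 11311 and 10782 on the WT arrays and 9154 and 7809 on the KO arrays. It fell 1.31-fold (-0.38 ± 0.10, limma, adjusted p = 0.0364). The call was lost without WT1 (adjusted p = 0.182), WT2 (0.119) or KO2 (0.0625), with no filter (0.0841), with median centring (0.0935) and with the mean over its probe sets (0.536). The other probe sets of Pttg1 were at -0.17 and 0.17. Espl1, separase itself, had 1121 and 935 against 956 and 639 (-0.38, not called). The APC/C activator Cdc20 was at -0.24 and the APC/C conjugating enzyme Ube2c, with 5457 and 4721 against 6352 and 4329, at 0.047. Sgol1 (-0.25) and Cdca5 (-0.33), which protect cohesin, and Cdca3 (-0.38), a trigger of mitotic entry, were not called.

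Arrays of 1 genotype differed in these genes in a common direction. KO1 was above KO2 in 54 of 59 genes, by a median of 0.39 on the log2 scale, and WT1 was above WT2 in 54 of 59, by 0.19. Over all tested genes the same medians were 0.0079 and -0.0085, with KO1 above KO2 in 51.2% and WT1 above WT2 in 48.6%. KO2 was the lowest of the 4 arrays in 50 genes (84.7%, beside 26.5% of all tested genes), and WT1 the highest in 38 (64.4%, beside 24.8%). Compared array by array, KO1 lay below WT1 by a median of 0.20 and KO2 below WT2 by 0.38, while KO1 was level with WT2 (0.032, above it in 33 of 59). Both KO arrays lay below both WT arrays in 26 of the 59 (beside 32.9% of all tested genes) and above them in 3, Nuf2, Spc25 and Kif4 (beside 29.8%). The groups overlapped in the other 30. Without KO2 the median log2 fold change of the list was -0.097, beside -0.023 for all tested genes in that fit. Without KO1 it was -0.47, with 21 called lower (9.27% of all tested genes), among them Top2a, Mki67, Bub1, Bub3 and Ndc80. Without WT1, 3 were called lower (5.4% of all tested genes). These genes move together between samples, so they are not separate measurements of a difference between genotypes.

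**Figure D3:**
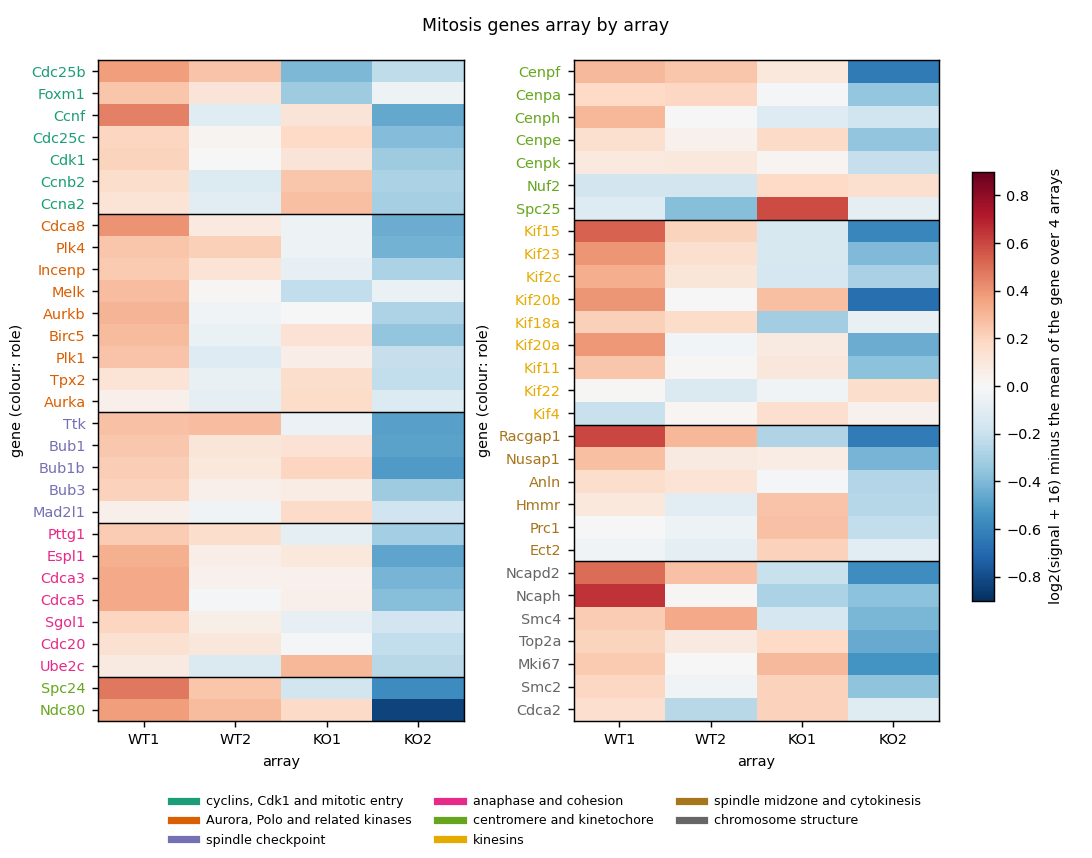
Log2(signal + 16) of the 59 genes on the 4 arrays, each gene centred on its mean, red above and blue below, with rows in 2 panels grouped and coloured by role. KO2 is the lowest array in 50 genes and WT1 the highest in 38.

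The genes with TTTGAA in their promoter differed more between the KO arrays than those without. Their median difference KO1 minus KO2 was 0.44 over 34 genes, beside 0.23 over the 15 tested genes whose promoter lacked it. For WT1 minus WT2 their median was 0.21, beside 0.12 without the motif. Their median log2 fold changes between genotypes were alike, -0.28 and -0.30. For CCAAT the medians of KO1 minus KO2 were 0.44 over 34 genes with it and 0.35 over 15 without. Those of WT1 minus WT2 were 0.17 with it and 0.19 without. The median log2 fold changes of these were -0.25 and -0.38. The DNA replication genes, of which 13.8% of those with a promoter sequence held TTTGAA, had a median KO1 minus KO2 of 0.35. Whether a motif goes with the difference between the KO arrays was not tested. Of the 50 mitosis genes with a promoter sequence, 28 held both motifs. Of the 5 called genes with a promoter sequence, Ncapd2 and Racgap1 held TTTGAA. These are descriptions of few genes that share arrays, with no test.

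**Figure D4:**
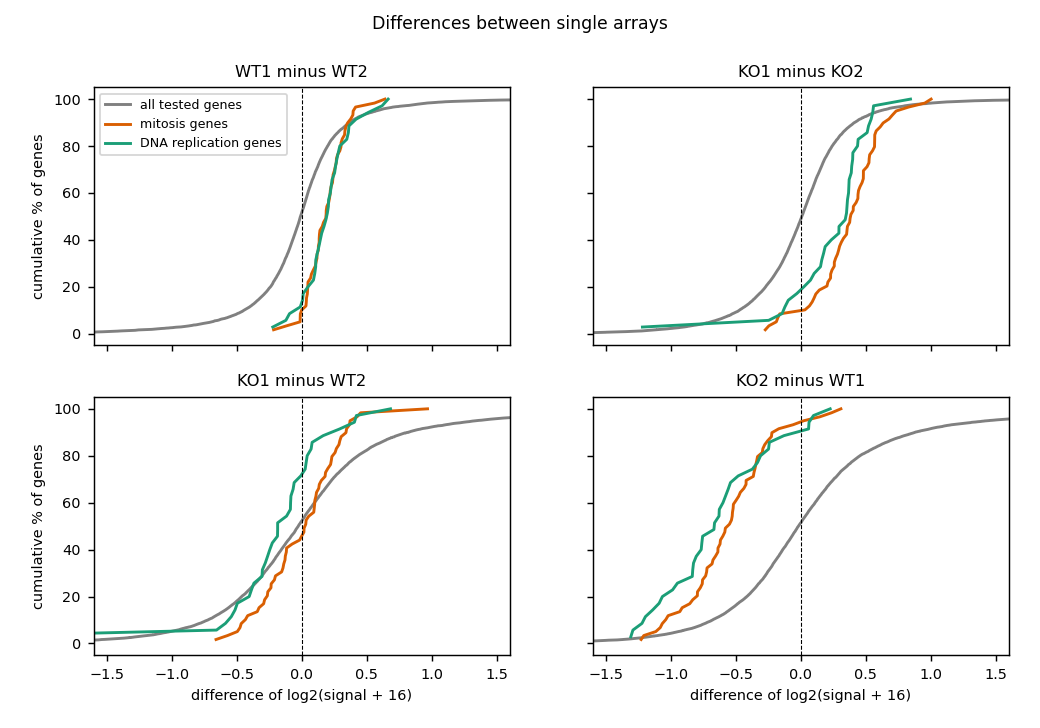
Cumulative percentage of genes against the difference of log2(signal + 16) between 2 single arrays, in 4 panels, for the 59 mitosis genes, 35 DNA replication genes and all tested genes; the axis leaves out differences beyond the range drawn. The mitosis genes lie to the right of all genes for KO1 minus KO2 (median 0.39) and are centred near 0 for KO1 minus WT2 (0.032).

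Probe sets of the same gene did not always agree. Of 39 genes with over 1 tested probe set, 13 had probe sets on both sides of 0. Over all 122 tested probe sets of the 59 genes, 13 were called lower (10.7%, beside 9.17% of all probe sets) and 0 higher (beside 7.89%). Of the dimmer probe sets, those of Smc4 and 1 each of Tpx2 (-0.98 ± 0.17), Nusap1 (-1.03 ± 0.29), Incenp (-1.01 ± 0.26) and Cdc20 (-1.91 ± 0.55) were called lower. In this way 11 genes had at least 1 called probe set, a looser rule that favours genes with several probe sets. The like share over all tested genes was not computed, so this count has no background beside it. For Tpx2 the called probe set had 798 and 654 against 338 and 378, while the brightest had 1243 and 1088 against 1273 and 975. Which stretch of the transcript each probe set reads was not tested.

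Genes of the same processes outside the list were taken from further lists. Of 17 APC/C genes 2 fell, Cdc23, a subunit (-0.66 ± 0.16), and Fbxo5 (-0.63 ± 0.18), the interphase inhibitor Emi1, and none rose. Their 11.8% called lower is near the 9.87% of all tested genes. Of 13 cohesin genes 4 fell (30.8%), Stag2, a core subunit (-0.56 ± 0.12), Nipbl and Mau2, the loader (-0.54 ± 0.13 and -0.79 ± 0.19), and Esco2, which acetylates the ring (-0.83 ± 0.23), while the core subunits Smc1a (-0.0075) and Rad21 (-0.21) were not called. Of 26 other centromere and kinetochore genes 4 fell (15.4%), Cenpl (-0.75 ± 0.13), Cenpm (-0.82 ± 0.23), Kntc1 (-0.73 ± 0.20) and Mis18a (-0.58 ± 0.11). Of 25 other spindle and cytokinesis genes 4 fell (16%), Psrc1 (-1.06 ± 0.17), a microtubule-binding protein, Kifc1 (-0.62 ± 0.14), Stil (-0.69 ± 0.15), which builds centrioles, and Shcbp1 (-0.49 ± 0.14). The numbers called lower dropped without WT1 to 1 in each of these 4 lists, while the share over all tested genes dropped to 5.4%. They dropped without WT2 (5.05% of all tested genes) to 0 for APC/C and cohesin and to 2 for the centromere list, and without KO2 to 1 for APC/C and 2 for the spindle list, which without KO1 rose to 9. Without KO2, 2 APC/C genes were called higher.

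Among the mitotic kinases and regulators outside the list, Nek6 was higher in KO cells. Nek6, a kinase of the spindle, had 148 and 266 on the WT arrays and 1303 and 1486 on the KO arrays, and rose 6.55-fold (2.71 ± 0.25, limma, adjusted p = 0.000255). Its relative Nek7 fell from 5477 ± 39.8 to 3661 ± 236 (-0.58 ± 0.10), as did Wee1, the kinase that holds Cdk1 inactive (-0.72 ± 0.17), and Bora, an activator of Aurka (-0.84 ± 0.24). These were 1 rise and 3 falls (15.8%) among 19 tested genes, beside 10.5% and 9.87% of all tested genes, with 1 fall without WT1 or KO2 and 5 without KO1. Of 23 genes of the E2F, DREAM and Myb machinery 4 fell (17.4%), Rbl1, the pocket protein p107 (-0.63 ± 0.11), Tfdp2 (-0.72 ± 0.17), Lin9 (-0.59 ± 0.17) and Rbbp4 (-0.35 ± 0.09). Rbl2, the pocket protein p130 of resting cells, rose from 3344 ± 400.0 to 4826 ± 58.1 (0.53 ± 0.11, limma, adjusted p = 0.0147). Without WT1, 1 gene of this list fell and 0 rose, without WT2 1 fell, and without KO2 2 fell. Leaving out either KO array gave 2 rises.

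DNA replication genes act before mitosis. Of 35 tested, 12 fell (34.3%, beside 9.87% of all tested genes) and none rose, at a median of -0.41, among them the licensing factor Cdt1 (-0.80 ± 0.14), Rpa2 (-0.67 ± 0.12) and the helicase subunits Mcm2 (-0.84 ± 0.15) and Mcm7 (-0.69 ± 0.13). Most of them too were lowest on KO2, in 27 of 35 (77.1%, beside 26.5% of all tested genes). KO1 was above KO2 in 29 of them, by a median of 0.35, and WT1 above WT2 in 31, by 0.20. KO1, however, lay below WT2 by a median of 0.18. Fewer were called without WT1, as over all tested genes. The difference between the replication and mitosis lists was not tested. Of 16 G1 genes 5 rose and 2 fell (12.5%), beside 10.5% of all tested genes called higher and 9.87% called lower. Of the 16, 8 lay below 0 and 8 above. At an unadjusted p under 0.05, 6 had higher and 6 lower values (37.5% each). Over all tested genes these shares were 16.5% and 18%. The rises included 3 inhibitors of G1 kinases, Cdkn1a (7424 ± 855 to 13113 ± 578, 0.82 ± 0.10), Cdkn2b (78.4 ± 12.5 to 446 ± 164, 2.25 ± 0.29) and Cdkn2a (9.36 ± 4.66 to 143 ± 51.6), with Ccnd3, a D cyclin (0.49 ± 0.11). The WT signals of Cdkn2a lay below the 16 added before the log, which therefore sets the size of its fold. The count of rises dropped without WT2, and that of falls without WT1 or either KO array. Calls over all tested genes dropped in these fits too. Without the intensity trend 0 genes of all these lists were called lower, and 1 mitotic kinase and 2 G1 genes were called higher. In that fit 651 of 12547 tested genes were called, 205 of them lower.

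Signals of marker genes of other cell types differed between genotypes and between the KO arrays; which cells their RNA came from was not tested. Summed signals of 5 mast cell or basophil markers were 695 and 888 on the WT arrays, 11610 on KO1 and 7761 on KO2, with 4 of 5 called higher. Those of 3 eosinophil markers were 18.1 and 73.6, 5444 and 2046, and those of 3 plasma cell markers 109 and 131, 4956 and 2612. Of NK cell markers 2 of 2 tested, from 4 listed, were called higher, and of CD8 T cell markers 2 of 2. Of myeloid markers 3 of 4 tested were called higher, of B cell markers 0 of 3 and of erythroid markers 0 of 1. Over all tested genes 10.5% were called higher and 9.87% lower. T cell markers were bright on all arrays, with Cd3e, Cd3d and Cd3g called higher and Cd4 not called. Foxp3, which defines Treg cells, had 2177 and 2033 on the WT arrays and 947 and 1100.5 on the KO arrays, and was called lower. KO1, the KO array with the higher mitosis signals, had higher sums than KO2 for every marker list but the erythroid one. WT1, the WT array with the higher mitosis signals, had lower sums than WT2 for every list but the T cell and erythroid ones. The part of the cells behind these markers in the mitosis signals was not tested. The ratio of 3 prime to 5 prime signal, a measure of RNA integrity, was 1.26 and 1.22 for Actb on the KO arrays and 1.36 and 1.56 on the WT arrays, and its part was not tested.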

How the data were processed

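The authors deposited an intensity on a linear scale for each probe set and array. The submitters' processing notes name MAS5; how it was set is not given in the sources used here. This method merges the probes of a probe set into 1 signal and, as usually run, scales every array to a common trimmed mean, which hides differences in total RNA per cell. Having only 2 arrays per genotype limits the precision throughout. Gene names came from the platform annotation, in which 34945 of the non-control probe sets name 1 gene.

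From these, 64 of 45101 probe sets were left out as controls, log2(signal + 16) was taken, and the dimmest 40% of probe sets by mean over the arrays were removed, which left 27022. Genotypes were compared by limma 3.58.1 under R 4.3.3, with an intensity trend and a two-sided moderated test on 2 residual and 6.41 prior degrees of freedom, and called at an adjusted p under 0.05. With 2 arrays against 2, an exact two-sided permutation p is at least 0.333. Fold changes on this scale understate changes of dim genes. The fit was checked on simulated data with independent errors, whose variances were drawn from the fitted intensity trend. Such a check cannot test that trend, or the effect of genes that move together between arrays. The genes and lists were chosen with earlier results of these data known, so no list was tested as a set. Every listed mitosis gene is described. Of other lists, called genes were named where 5 or fewer, and otherwise the 4 with the smallest p. The alternatives were another pseudocount, filter, scaling, variance model or choice of probe set, a block for the array number, and leaving out each array.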

Additional observations from a re-analysis of the deposited data

How the results depend on the processing

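The 7 decreases and the downward median of the mitosis genes rest on 4 arrays, and single arrays decide much of both. With each array left out in turn, the number called lower ranged from 3 (without WT1, where 5.4% of all tested genes were called lower) to 21 (without KO1, 9.27%), the number called higher from 0 to 1, and the median log2 fold change from -0.47 to -0.097. Under the other pseudocounts, filters, scalings and probe set choices 5 to 10 were called lower, with 5.02% of all tested genes called lower with no filter (5 mitosis genes) and 13.7% with the filter of 60% (10), and the median lay between -0.32 and -0.24. Without the intensity trend 0 were called lower (1.63% of all tested genes). With the array number as a replicate block 13 were called lower and 1 higher. In that fit 2913 of 12547 tested genes were called, 1429 of them lower (11.4%). The labels do not say that the numbers pair the samples. Deviations of same-numbered samples correlated at 0.0103 over all probe sets and 0.18 over the mitosis genes, in 2 pairs. A correlation over genes ignores a shift common to them. Of the mitosis genes, 54 of 59 were higher on WT1 than on WT2, and 54 on KO1 than on KO2. The correlation therefore cannot decide whether the numbers pair the samples. The cause of the changes in the counts and medians was not tested. Of 884 values of single genes under the alternatives, 40 had the opposite sign, and in none of those was the gene called. Hmmr turned to 0.022 under quantile normalization, and under median centring Ccna2 turned to 0.021, Ccnb2 to 0.011, Mad2l1 to 0.033 and Hmmr to 0.043. Kif22 turned to -0.43 without the probe sets marked as open to cross-hybridisation, and with the mean over the probe sets of a gene Ccna2 turned to 0.14, Aurka to -0.48, Spc25 to -0.16, Kif22 to -0.23, Prc1 to -0.023 and Cdca2 to -0.035. Leaving out arrays moved Ccna2 from -0.31 to 0.26, Ccnb2 from -0.30 to 0.23, Plk1 from -0.33 to 0.047, Tpx2 from -0.25 to 0.13, Mad2l1 from -0.19 to 0.16, Hmmr from -0.26 to 0.25 and Aurka from -0.10 to 0.19. It moved Ube2c from -0.23 to 0.32, Cdca2 from -0.099 to 0.30, Prc1 from -0.20 to 0.28, Ect2 from -0.035 to 0.26, Cdk1 from -0.42 to 0.018, Cdc25c from -0.50 to 0.068 and Birc5 from -0.47 to 0.014. Bub1b ranged from -0.67 to 0.037, Cenpe from -0.45 to 0.079, Kif20b from -0.88 to 0.070, Mki67 from -0.65 to 0.18, Top2a from -0.60 to 0.038 and Smc2 from -0.44 to 0.13.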
